A study of Homo sapiens with 34 samples.

Results

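The regions described here are 11336 H3K27ac regions of DLD1 cells that were listed without induction and met no region of the induced list. These regions, called members below, were chosen by 2 conditions: a width under 6000 bp, and no shared base with any induced H3K27ac region. They make up 14.5% of the 78005 uninduced regions on chromosomes 1 to 22 and X, which is also the background percent of the comparison that chose them. DLD1 is a colorectal adenocarcinoma line. The cells carried a tetracycline-inducible transgene for dominant negative TCF7L2 in both groups: induced cells, given 1 µg/mL doxycycline for 24 h, and uninduced cells, with no treatment. Doxycycline itself was given to the induced cells alone, so its own effect and that of the transgene cannot be told apart. Each antibody and condition had 2 samples and the labels tie 1 peak list to both, so 4 lists were read (H3K27ac and RNA polymerase II, each induced and uninduced) and no spread between replicates could be measured. No difference below therefore has a p-value, and intervals are 95% intervals for counting error only. The same count on the induced list gave 9862 of 79987 regions (12.3%) that met no uninduced region, here called induced-alone regions. The 64166 uninduced regions under 6000 bp that did meet an induced region are called partnered.

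H3K27ac is acetylation of lysine on the tail of histone H3, placed by p300 and CBP at active promoters and enhancers and removed by deacetylases. TCF7L2 is the factor through which β-catenin switches on Wnt target genes in intestinal epithelium. A dominant negative form binds the same DNA sites without β-catenin and holds these genes off. RNA polymerase II (Pol II) marks transcribed genes and, more weakly, active enhancers. Chromatin came from bulk cells, so fewer cells carrying a mark and less of it per cell cannot be told apart. Of 20 genes of colon epithelium identity, 19 had an induced and 18 an uninduced H3K27ac region within 1 kb of a gene end, against 8 and 8 of 21 markers of other lineages.

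Few of these regions touched a promoter. A promoter window was the 250 bases before a transcription start of a protein-coding gene, as RefSeq gives them on GRCh38.p14. Of 22132 such windows, 64 (of 60 genes) overlapped a region listed only without induction, against 13289 under an uninduced region of any width with a partner and 84 under an induced-alone region. Of the promoters that could be printed, the 4 under the members of highest −log10 q come first, followed by the next 2 that hold a TCF motif. They were chosen after their values were seen. Capitals mark the motif CTTTGAA or CTTTGAT, the core that TCF factors bind, on either strand (TTCAAAG or ATCAAAG when read on the other). The sequences run 5′ to 3′ on the gene's strand.
ANO4 promoter: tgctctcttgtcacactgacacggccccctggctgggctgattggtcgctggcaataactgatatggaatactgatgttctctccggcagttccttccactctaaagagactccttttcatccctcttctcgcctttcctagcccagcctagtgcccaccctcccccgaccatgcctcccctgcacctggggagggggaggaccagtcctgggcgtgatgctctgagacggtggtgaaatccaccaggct
MPP4 promoter: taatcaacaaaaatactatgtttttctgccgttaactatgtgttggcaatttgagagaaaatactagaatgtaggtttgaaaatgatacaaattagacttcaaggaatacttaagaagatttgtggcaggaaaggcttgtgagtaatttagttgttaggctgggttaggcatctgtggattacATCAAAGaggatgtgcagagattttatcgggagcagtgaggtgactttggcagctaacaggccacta
ST7 promoter: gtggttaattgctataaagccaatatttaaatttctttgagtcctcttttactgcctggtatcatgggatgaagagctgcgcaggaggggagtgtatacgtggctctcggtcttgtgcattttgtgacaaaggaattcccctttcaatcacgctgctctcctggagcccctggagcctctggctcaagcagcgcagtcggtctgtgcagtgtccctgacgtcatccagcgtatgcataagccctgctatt
HOMER2 promoter: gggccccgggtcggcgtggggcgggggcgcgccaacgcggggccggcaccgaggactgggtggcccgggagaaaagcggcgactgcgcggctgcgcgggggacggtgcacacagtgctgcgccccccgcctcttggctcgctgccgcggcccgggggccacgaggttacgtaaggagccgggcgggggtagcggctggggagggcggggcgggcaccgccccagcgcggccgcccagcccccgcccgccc
AKR1C4 promoter: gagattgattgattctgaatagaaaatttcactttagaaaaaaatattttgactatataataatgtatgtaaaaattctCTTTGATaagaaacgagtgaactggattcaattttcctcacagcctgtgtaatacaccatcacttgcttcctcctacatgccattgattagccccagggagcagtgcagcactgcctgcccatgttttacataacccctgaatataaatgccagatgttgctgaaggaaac
KRTAP1-5 promoter: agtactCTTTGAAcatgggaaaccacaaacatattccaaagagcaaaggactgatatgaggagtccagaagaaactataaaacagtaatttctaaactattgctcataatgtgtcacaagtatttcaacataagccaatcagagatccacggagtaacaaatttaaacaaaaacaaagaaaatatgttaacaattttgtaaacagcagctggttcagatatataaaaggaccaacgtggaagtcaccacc

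ANO4 encodes an anoctamin of the ion channel and scramblase family. Its window, chr12:100794526-100794775 on the plus strand, lay inside a member of 1537 bp, 46.5 kb from the nearest induced region. The fold enrichment of that member was 7.31 and its −log10 q, the caller's confidence measure, 23.3. MPP4, a scaffold protein of photoreceptors, has its window at chr2:201698645-201698894 on the minus strand, with 1 TCF match. The member over it was 1683 bp wide, its fold was 5.81 and its −log10 q 17.7. The window of ST7, a candidate tumour suppressor, at chr7:117019968-117020217 on the plus strand lay under a member of 1034 bp with a fold of 4.6. HOMER2 is a postsynaptic scaffold protein, and its window at chr15:82952721-82952970 on the minus strand was the only one of the 6 rich in CpG, with 37 CpG and 82% G or C. The member there began inside the window and lay 0.424 kb from an induced region. AKR1C4, a steroid-metabolising aldo-keto reductase, had its window at chr10:5196587-5196836 on the plus strand and a member fold of 3.53. KRTAP1-5, a keratin-associated protein of hair, had its window at chr17:41027209-41027458 on the minus strand and a member fold of 3.34. The motif marked in KRTAP1-5 lies in the part of the window that the member does not cover, while those of MPP4 and AKR1C4 lie inside the member. None of these 6 members lay on a Pol II region of either list.

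The promoters under members were poor in CpG. Their median was 4 CpG in 250 bases and 52.6% G or C, against 21 CpG and 65.6% under partnered regions, 9.5 CpG and 61% under induced-alone regions, and 5 CpG and 54% for promoters under no H3K27ac region of either list. In this paragraph, partnered regions include those of 6000 bp or more. A TCF match was found in 8 of the 64 windows (12.5%, Wilson interval 6.47 to 22.8), against 3.42% under partnered regions, 5.95% under induced-alone regions, 7.15% under no H3K27ac region and 4.91% of all windows. The AP-1 motif TGACTCA or its reverse complement TGAGTCA was in 4 of the 64 (6.25%, 2.46 to 15), against 2.80% under partnered regions, 5.95% under induced-alone regions, 4.39% under no H3K27ac region and 3.45% of all windows. The match itself lay inside the member in 6 of the 8 windows with a TCF match and in 2 of the 4 with an AP-1 match. Neither motif contains the other, though their end letters can overlap. The TCF interval includes the share of promoters without H3K27ac, the AP-1 interval all 4 other shares, and base composition differed between the groups. The TCF share under induced-alone regions rests on 5 of 84 windows, and its own interval (2.57 to 13.2) overlaps that of members.

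The regions listed only without induction were narrow and weak. Their width was 398 bp at the median (394 to 402), with quartiles at 321 and 546 bp and a range of 277 to 2874 bp. Partnered regions measured 1374 bp (1360 to 1386) and induced-alone regions 372 bp (368 to 375). Though the list held wider regions, no uninduced region of 6000 bp or more lacked an induced partner. The members covered 5.48 Mb, 4.02% of the 136.6 Mb of the uninduced list. A single summit was called in 88.7% of members, against 40.5% of partnered regions. All of these values follow from the comparison that chose the regions and are given as a description.

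**Figure D1:**
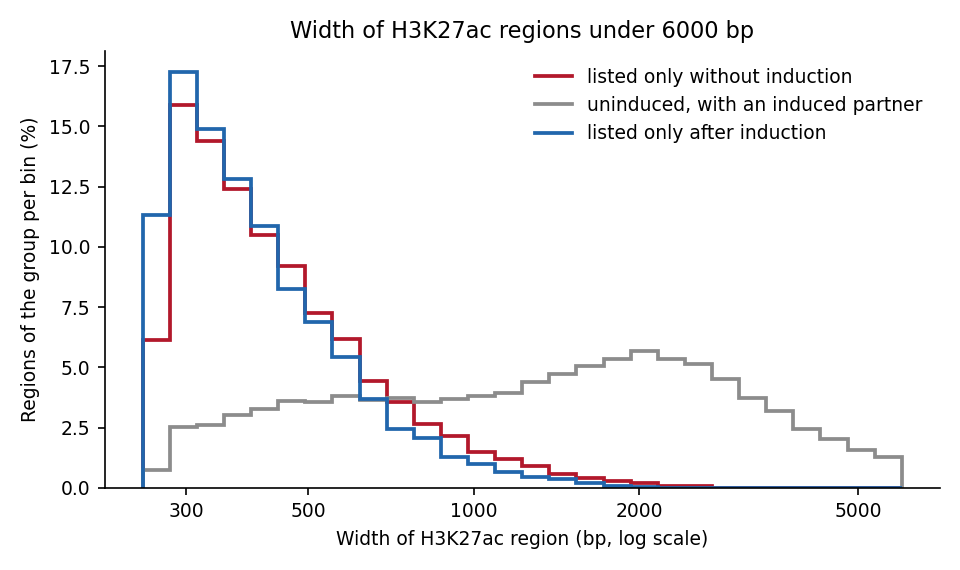
Width of H3K27ac regions under 6000 bp on a log scale, as the percent of each group per bin, for regions listed only without induction (red), uninduced regions with an induced partner (grey) and regions listed only after induction (blue). The red and blue curves nearly coincide, with medians of 398 and 372 bp, while the grey curve is broad with a median of 1374 bp.

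The share of uninduced regions without a partner fell steeply with width. It was 55.9% of regions under 300 bp, 46.2% of those from 300 to under 400 bp, 13.7% from 600 to under 1000 bp, 2.75% from 1000 to under 2000 bp and 0.151% (32 of 21248) from 2000 to under 6000 bp. It fell likewise with −log10 q, the peak caller's own measure of a region within its list, to 2.22% at 10 or more, against 54.5% under 2. The median −log10 q of members was 4.22 and their median fold enrichment over local background 3.06, against 29.2 and 7.55 in partnered regions of the same list. Even so, 1110 members (9.79%) had a −log10 q of 10 or more and 223 of 20 or more. At the limit of the overlap rule, members and partnered regions had like values. The 35 members within 10 bp of an induced region had a median width of 353 bp and a median fold of 2.82. The 34 partnered regions with at most 10 bp covered had a median width of 437 bp and a median fold of 2.79.

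Many members lay beside a region of the induced list. The gap to the nearest induced region was at most 1 kb for 4554 members (40.2%), 1 to 10 kb for 3667, 10 to 100 kb for 2736 and over 100 kb for 379. The median gap was 2090 bp (1958 to 2251), against 1587 bp (1477 to 1697) between induced-alone regions and the uninduced list. Within 1 kb of a region of their own list that had an induced partner, of any width, lay 39.5% of members (38.6 to 40.4). A −log10 q of 10 or more was reached by 7.55% of the members within 1 kb, 9.84% of those at 1 to 10 kb, 13.1% at 10 to 100 kb and 12.4% beyond 100 kb.

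Of the 10 members of highest −log10 q, 8 lay outside genes. The highest of all, chr8:108136244-108137571, was 1328 bp wide, its fold was 16.9 and its −log10 q 88.6. It lay 52.6 kb from RSPO2, which encodes a secreted R-spondin that strengthens Wnt signalling, and 69.3 kb from the nearest induced region. A neighbour at chr8:108134622-108136167, with a fold of 11, was also among the 10 highest, and together they spanned 2950 bp with no induced region between. The second highest, chr5:36581482-36582232, had a fold of 14.3. It was 1 of 4 members in a stretch of 4447 bp that began 13.3 kb from SLC1A3, a glial glutamate transporter.

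The others of the 10 highest had folds from 10.1 to 13.2. Those inside genes lay in DNAH9 (chr17:11907373-11909855, fold 13.2), a dynein of motile cilia, and in AKAP1 (chr17:57101245-57103326, fold 12.1), a mitochondrial anchor of protein kinase A. Of those outside genes, one lay 93.6 kb from RP1, a microtubule protein of photoreceptors, one 32.9 kb from CDK17, a cyclin-dependent kinase, and one 27.9 kb from UFM1, a ubiquitin-like modifier. None of the 10 overlapped a Pol II region of either list. The widest member, chr2:158272958-158275831 in CCDC148, measured 2874 bp with 4 summits and a fold of 7.40. Another of the widest, near NUBPL, an iron-sulfur assembly factor of respiratory complex I, measured 2652 bp. Joining members at most 1 kb apart gave 1098 stretches of 2 or more with no induced region inside, which held 2296 members. The longest of these stretches was 4886 bp.

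Members were seldom found at gene ends, as were induced-alone regions. A protein-coding gene began or ended within 1 kb of 4.15% of members (471 of 11336, 3.8 to 4.54), against 19.3% of partnered and 3.99% of induced-alone regions. Within 1 kb of a transcription start lay 1.59%, 15.5% and 1.77% of the 3 groups. A protein-coding gene was overlapped by 52.1% of members (51.2 to 53.0), 58.1% of partnered and 50.4% of induced-alone regions. In bands of −log10 q under 10 the gene-end shares of members and partnered regions were closer. They were 3.27% and 4.24% under 2, 4.42% and 5.86% from 2 to 3, 4.74% and 4.93% from 3 to 5, and 4.20% and 5.70% from 5 to 10. From 10 to under 50 they were 2.45% (1.69 to 3.54) in members and 8.22% (7.86 to 8.59) in partnered regions, intervals that do not overlap. Members lay lower in this range than partnered regions. In finer bands their share was the lower in each, but the intervals were apart only from 10 to under 15 (1.54%, 0.836 to 2.80, and 6.71%, 6.08 to 7.40).

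Members outside genes were also farther from them. The median distance to the nearest protein-coding gene was 48.9 kb (45.9 to 52.2) for the 5430 members outside genes, against 35.4 kb (34.5 to 36.2) for partnered and 33.3 kb (31.3 to 35.9) for induced-alone regions. Over 100 kb from a gene lay 34.5%, 27.7% and 26.0%. Inside genes, the share of regions that were members rose with gene length. It was 5.13% in genes under 10 kb, 8.76% from 10 to 30 kb, 12.2% from 30 to 100 kb, 14.1% from 100 to 300 kb and 17.6% in genes over 300 kb. Members per Mb of gene ran the other way, at 7.31 in the shortest class and 3.17 in the longest. Of the 19974 protein-coding genes, 3406 (17.1%) held a member.

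The 6 highest members at a gene end had folds between 6.73 and 8.90. They lay at CEP83, a protein of the distal appendages of centrioles (chr12:94308675-94309710), at CLIC6, of the chloride intracellular channel family (chr21:34667132-34669647), and at PLEKHG7, a guanine nucleotide exchange factor (chr12:92769002-92769795). The others were at FGF20, a fibroblast growth factor (chr8:17003218-17004886), at CYSLTR1, a receptor for cysteinyl leukotrienes (chrX:78269731-78271593), and at OR51E2, an olfactory receptor (chr11:4680563-4681441). None of the 6 overlapped Pol II in either list. The last 3 lay between 0.330 and 0.373 kb from an induced region, and the one at PLEKHG7 65.8 kb from it.

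Pol II was scarce on the members, and scarcer on the strong ones. An induced Pol II region overlapped 5.55% of members (5.14 to 5.99) and an uninduced one 8.22% (7.73 to 8.74), where the background over all uninduced H3K27ac regions was 34.7% and 39.8%. Partnered regions reached 37.8% and 43.2%, and induced-alone regions 5.52% and 6.36%. Of the members, 10370 (91.5%) lay on no Pol II region of either list, 595 on one of both lists, 34 on one of the induced list alone and 337 (2.97%) on one of the uninduced list alone, where the background for the last class was 6.14%. The uninduced Pol II list is the longer one, with 57247 regions against 50665 in the induced list.

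The gap in Pol II between members and partnered regions widened with −log10 q. Under 2, Pol II of the induced list was on 5.91% of members and 7.50% of partnered regions, and Pol II of the uninduced list on 8.45% and 9.46%, with overlapping intervals. From 10 to under 50, induced Pol II was on 17 of 1102 members (1.54%, 0.965 to 2.46) and on 20.8% of partnered regions (20.3 to 21.4). Uninduced Pol II was on 40 of these members (3.63%, 2.68 to 4.90) and on 26.3% of partnered regions (25.7 to 26.9). Of members under 10, 8.72% (8.19 to 9.29) lay on uninduced Pol II, against 12.9% (12.4 to 13.4) of partnered regions under 10. With width limited as well, among regions of 600 to under 2000 bp of that band, uninduced Pol II was on 3.43% of 699 members (2.32 to 5.06) and on 26.9% of partnered regions. Outside genes the same limits gave 4.34% of 369 members and 27.3% of partnered regions, and inside genes 1.61% of 311 members and 17.6%. Induced-alone regions of −log10 q 10 to under 50 also had low shares, with 3.89% on induced and 3.43% on uninduced Pol II.

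**Figure D2:**
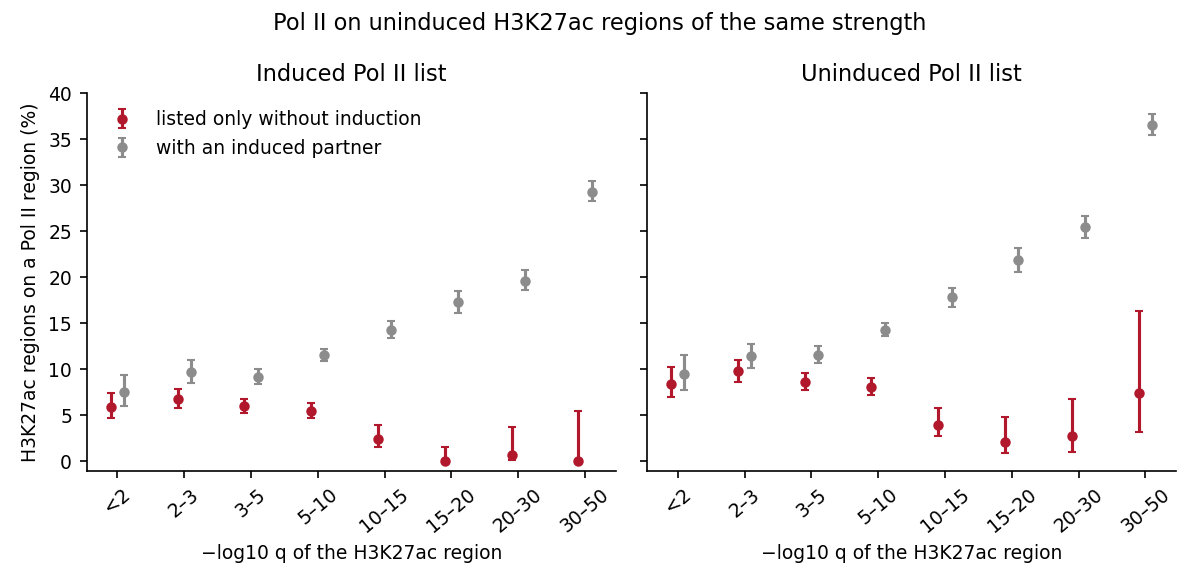
Percent of uninduced H3K27ac regions that overlap a Pol II region of the induced list (left) and of the uninduced list (right), by −log10 q of the H3K27ac region, for regions listed only without induction (red) and regions with an induced partner (grey). Bars are Wilson 95% intervals. The grey points climb with −log10 q, to 29.3% and 36.6% at 30 to 50, while the red points stay below 10% in every band.

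Gene ends were where members met Pol II most. Of the 471 members at a gene end, 32.7% lay on induced and 39.7% on uninduced Pol II, against 89.3% and 91.2% of partnered regions at gene ends. Strength was not matched here: a −log10 q of 10 or more was reached by 5.73% of these members and 92.3% of these partnered regions. Inside genes the members' shares on induced and uninduced Pol II were 4.18% and 6.24%, and outside genes 4.58% and 7.51%. Members over 100 kb from any induced H3K27ac region were an exception to the low level, with 14.0% of the 379 on induced and 19.8% on uninduced Pol II.

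Uninduced Pol II under members was shared with the induced list less often than that under partnered regions. Of the 932 such members 63.8% (60.7 to 66.9) also lay on induced Pol II, against 84.7% of partnered regions. The Pol II under members was weaker, with a median −log10 q of 12.1 against 50.6 under partnered regions. Counted by Pol II region, 28.6% of the 878 uninduced Pol II regions under a member had no induced Pol II partner, against 19.4% of those under partnered regions and no member, and 30.4% of all 57247. In bands of the Pol II region's own −log10 q the shares were 66.9% and 64.6% from 3 to 5, 37.9% and 41.3% from 5 to 10, and 14.5% and 14.1% from 10 to 20, under members and under partnered regions. A partner of the Pol II region need not overlap the H3K27ac region. Counted by H3K27ac region in such bands, induced Pol II was on 71.0% of members (63.2 to 77.8) and 85.9% of partnered regions from 10 to 20. At 20 or more it was on 87.2% (83.4 to 90.2) and 99.5%. In each band below 10 the intervals overlapped. Width was not matched in this count, and members are narrower than partnered regions (398 against 1374 bp at the median of each whole group).

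The 6 highest members with uninduced Pol II and none induced had H3K27ac folds of 5.98 to 9.54. They lay near CHN1, a Rac GTPase-activating protein (chr2:174787114-174789215), near GZMB, a protease of cytotoxic lymphocytes (chr14:24672634-24673623), and near IQSEC3, an exchange factor for ARF GTPases (chr12:40781-41268). The others lay near C3orf38, near TLNRD1, a talin rod domain protein, and near LGALSL, a galectin-like protein. All 6 were outside genes, 2.85 to 38.4 kb from the nearest. The Pol II regions under them had −log10 q values between 4.22 and 16.2.

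Many members stood beside another member. In the order of the uninduced list, 38.1% of them (37.2 to 39.0) had a member as next or previous region within 100 kb, against 32.7% (31.8 to 33.6) of induced-alone regions in their own list. Members are also the larger share of their list (14.5% against 12.3%), and what part of this gap that gives was not tested. The nearest other member was 26.2 kb away at the median, and within 1 kb for 20.5%. Runs of consecutive members were mostly pairs (1441), with 322 runs of 3, 77 of 4, 17 of 5, 6 of 6, 4 of 7 and 2 of 9. The longest induced-alone run had 6 regions.

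The 2 longest runs had 9 members each. One, chr12:83380291-83471004, spanned 90.7 kb of sequence 245.4 kb from TMTC2, an endoplasmic reticulum protein, with a highest fold of 5.78. The other, chr18:9951884-10024240, spanned 72.4 kb at VAPA, a tether of membrane contact sites, with a highest fold of 3.77. Runs of 7 lay near HHIP, an antagonist of Hedgehog ligands (chr4:144451990-144578765), and in EIF4G3, a translation initiation factor (chr1:21027314-21091761). No member of these 4 runs lay on Pol II of either list.

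Per chromosome, members made up between 10.1% (chromosome 19) and 17% (chromosomes 4, 5 and 8) of the uninduced regions. Induced-alone regions made up between 10.2% (chromosome 16) and 13.8% (chromosome 10) of the induced ones. Chromosome 19 had the highest share of uninduced regions at a gene end, 35.4%. In bins of 1 Mb the median was 3 members over 2730 bins with an uninduced region, and 8 bins held 20 or more. Between the number of members and that of uninduced regions over these bins, the Spearman rho was 0.738. Members are counted among the uninduced regions, so a positive rho is in part built in. Between members and induced-alone regions the rho over bins was 0.458. A bin of 20 or more induced-alone regions occurred 15 times, with 28 at most.

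The bin with most members, chr10:70000001-71000000, held 40 among 96 uninduced regions, and 4 induced-alone regions. Its genes include PALD1, which encodes paladin (12 members inside), SGPL1, the sphingosine-1-phosphate lyase (5), and ADAMTS14, a procollagen peptidase (3). The next bin, chr18:10000001-11000000, held 33 members among 78 regions and 3 induced-alone regions. It contains APCDD1, a membrane inhibitor of Wnt signalling, with 1 of the 33 members inside that gene. In chr15:80000001-81000000 there were 27 members among 80 regions, 19 of them in CEMIP, a hyaluronan-degrading protein, and 12 induced-alone regions. The bin at chr17:65000001-66000000 held 23 among 108, and 8 induced-alone regions. Of its genes, AXIN2 had 0 members inside and CEP112 had 14 in its part within the bin. The members of these 4 bins had median −log10 q values of 3.37, 3.85, 2.81 and 3.83, against 4.22 for all members.

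**Figure D3:**
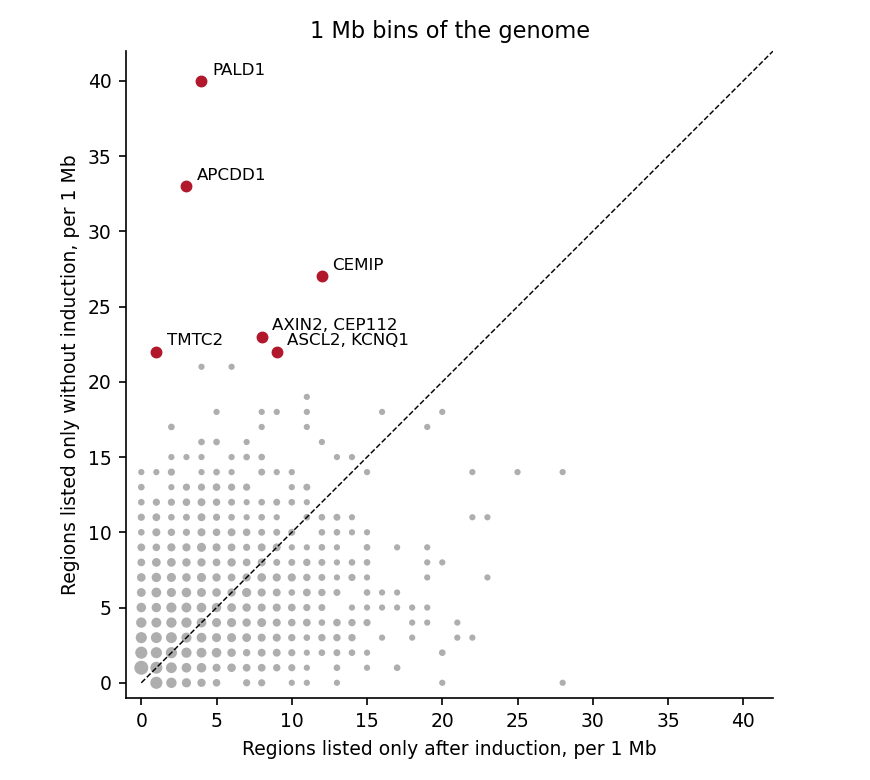
Bins of 1 Mb by the number of H3K27ac regions listed only without induction (vertical axis) and only after induction (horizontal axis). Point size grows with the number of bins at that position, the dashed line marks equal numbers, and 6 of the 8 bins of 20 or more members are drawn in red with a gene each holds. The bin of PALD1 has 40 members and 4 induced-alone regions.

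Genes with many members inside included CEMIP (19 of 38 uninduced regions, 4 induced-alone regions) and CEP112 (16 of 55, 3), a centrosomal protein. Others were KLF12 (14 of 38, 2), a zinc finger repressor, NRXN3 (14 of 38, 2), a synaptic neurexin, BABAM2 (13 of 31, 0), a subunit of BRCA1-A complexes, and PDE4D (13 of 67, 4), a cAMP phosphodiesterase. ITGA9, an integrin subunit (12 of 29, 3), PALD1 (12 of 19, 0) and GSE1 (11 of 67, 5) were also among the 10 genes with most. In PALD1 and 50 kb around it, 17 of 31 uninduced regions were members. They were 292 to 1265 bp wide, had folds of 2.43 to 5.38, and 1 lay on induced and 2 on uninduced Pol II. Near 34 of the 19974 protein-coding genes (0.17%) there were 10 or more members in the gene or 50 kb of it.

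**Figure D4:**
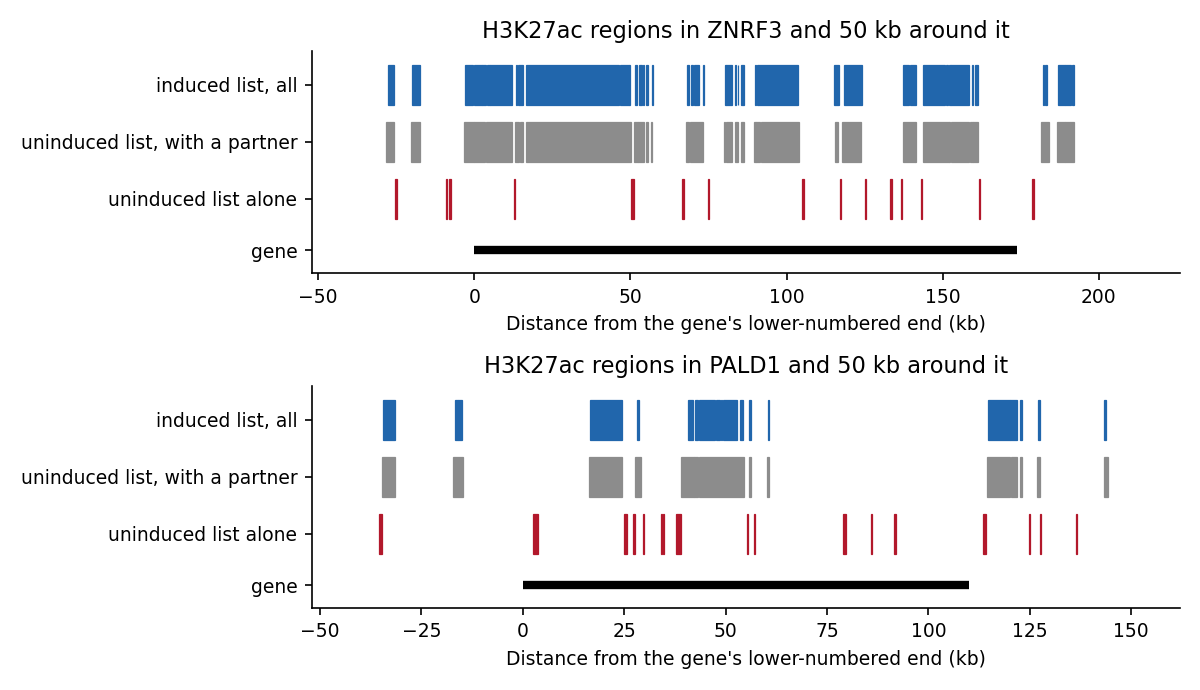
H3K27ac regions in and within 50 kb of ZNRF3 (top) and PALD1 (bottom), in kb from the lower-numbered end of each gene. Rows show all regions of the induced list (blue), uninduced regions with an induced partner (grey), uninduced regions without one (red) and the gene (black). There are 15 red regions at ZNRF3 and 17 at PALD1, while neither gene has a region of the induced list alone.

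Genes of the Wnt pathway had more members near them than the average gene. Among 466 uninduced regions in or within 50 kb of the Wnt and TCF target genes (39 of the 41 written matched), 87 were members (18.7%, 15.4 to 22.5), against 13.6% of regions near all protein-coding genes. Induced-alone regions were 43 of 468 induced regions there (9.19%, 6.89 to 12.1), against 12% near all genes. Of the 87 members 55.2% were within 1 kb of an induced region and 26.4% had a −log10 q of 5 or more, against 40.2% and 37.3% of all members. With only regions of −log10 q 5 or more, members were 6.78% of the regions near these genes (4.56 to 9.97), against 5.93% near all genes. With a region of the other list within 1 kb counted as shared, they were 8.58% (6.37 to 11.5), against 8.00%. Both intervals include the value for all genes, so the excess was no longer larger than counting error. The induced-alone share under these 2 settings was 2.66% (1.41 to 4.98), against 4.12% near all genes, and 4.49% (2.95 to 6.76), against 6.65%, lower in both but with intervals that include the value for all genes.

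Gene by gene, 16 of the 38 Wnt target genes with an H3K27ac region nearby had more members than induced-alone regions, 9 had fewer and 13 had equal numbers. Over all 18348 genes with such a region, 31.9% had more members. At least 3 members and no induced-alone region were found near 8 of the 38, where the background was 4.11%. The 8 were ZNRF3, NKD1, BMP4, FGF20, APCDD1, ASCL2, AXIN2 and SMOC2. Negative regulators of the pathway were among these 8 and among the others: RNF43, a ubiquitin ligase related to ZNRF3, had 3 members and 1 induced-alone region, NOTUM, a Wnt deacylase, 2 and 1, DKK1, a secreted antagonist, 1 and 1, and SFRP5, which binds Wnt ligands, 0 and 2.

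ZNRF3, a ubiquitin ligase that removes Frizzled receptors from the membrane, had 15 members among 48 uninduced regions, 11 of them inside the gene, and no induced-alone region among 45 induced ones. The 15 were 301 to 874 bp wide, with folds of 2.39 to 4.15. None lay on induced Pol II and 1 on uninduced Pol II, and 8 were within 1 kb of an induced region.

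NKD1, an inhibitor that binds Dishevelled, had 7 members among 19 uninduced regions and no induced-alone region. One of them, chr16:50544435-50546841, measured 2407 bp with a fold of 4.42 and ended 1.56 kb from the gene. AXIN2, the scaffold of the β-catenin destruction complex, had 4 members among 12 regions. The highest, chr17:65519358-65520600, had a fold of 4.37, lay 7.96 kb from the gene and overlapped Pol II of both lists. APCDD1 had 4 among 14, with folds of 2.21 to 3.27. ASCL2, the transcription factor of intestinal stem cells, had 4 among 7, at 19.8 to 48.8 kb from the gene, with folds of 2.60 to 3.36. WIF1, a secreted Wnt-binding inhibitor, had 5 among 12 and 1 induced-alone region, and its highest member (chr12:65129334-65129766) had a fold of 5.29. FGF20 had 5 members among 7 uninduced regions, with folds of 2.40 to 7.17.

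Members and induced-alone regions both occurred near other genes of the pathway. TNFRSF19, a receptor of the TNF family, had 6 members among 24 uninduced regions and 1 induced-alone region, with a highest fold of 4.52. LEF1, a TCF family transcription factor, had 5 among 16 and 1 induced-alone region. TCF7L2 itself had 2 members among 28 uninduced regions and 12 induced-alone regions among 37. LGR5, the R-spondin receptor of stem cells, had 2 members and 2 induced-alone regions, and MYC 1 and 0. The highest member near EPHB2, a receptor kinase that positions crypt cells, had a fold of 5.79 and lay 47.2 kb away. Members were absent near SP5, CCND1, TCF7, CDX1, ETS2 and VEGFA, genes chosen for mention after their values were seen. Near Wnt ligands, R-spondins and Frizzled receptors, 37 of 205 uninduced regions were members (18%, 13.4 to 23.9), against 13.6% induced-alone regions (9.54 to 19.1). These intervals overlap, and that of the members includes the member share near all protein-coding genes (13.6%). The highest members of this ligand and receptor list lay near FZD6, FZD8, WNT5B and WNT16, with folds of 7.43, 4.62, 5.93 and 4.06.

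Near genes of the colon lists, induced-alone shares were above member shares. Near genes of colonocyte differentiation 29 of 305 uninduced regions were members (9.51%, 6.70 to 13.3) and 63 of 354 induced ones induced-alone (17.8%, 14.2 to 22.1). Near genes of colon epithelium identity the values were 6.48% (3.9 to 10.6) and 16.0% (12 to 21.1), near goblet and secretory genes 11.1% (7.58 to 16.0) and 17.9% (13.6 to 23.3), and in the guanylate cyclase C pathway 8.89% (4.57 to 16.6) and 15.8% (9.99 to 24.2). For goblet and secretory genes and for the guanylate cyclase C pathway these intervals overlap. For the colonocyte list the intervals overlapped with only regions of −log10 q 5 or more (4.02%, 2.20 to 7.23, and 5.17%, 3.10 to 8.48) and with the 1 kb rule (5.90%, 3.77 to 9.14, and 7.63%, 5.29 to 10.9). They also overlapped with the 70000 highest regions of each list (10.7%, 7.61 to 14.9, and 14.1%, 10.7 to 18.5). With 200 kb in place of 50 kb they overlapped too (11.7%, 9.81 to 13.9, and 14.5%, 12.5 to 16.8). They stayed apart with 50% coverage and with 20 kb. All 4 lists had an induced-alone share above the 12% of all genes, though for colon identity and the guanylate cyclase C pathway the interval reaches that value, and some genes stand on more than 1 list. Housekeeping genes gave 10.0% and 9.34%, and markers of other lineages 11.5% and 14.3%.

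Some strong members nonetheless lay near colon genes. GUCA2A and GUCA2B, the guanylin and uroguanylin genes, shared the member chr1:42134333-42135080, whose fold was 5.81 and −log10 q 17.7. It lay 104 bp from an induced region, 27.6 kb from GUCA2A and 18.3 kb from GUCA2B. GUCY2C, the receptor of both peptides, held 1 member inside the gene, with a fold of 2.83. KRT20, a keratin of mature colonocytes, held 2 members and no induced-alone region inside the gene (2 within 50 kb), the highest member at chr17:40882562-40883101 with a fold of 5.09. CDX2, a homeobox factor of intestine, had one with a fold of 4.57 at 26.6 kb, and CA4, a carbonic anhydrase, one with a fold of 4.27 at 7.89 kb. CFTR, the chloride channel, had 5 members and 10 induced-alone regions, the highest member with a fold of 4.30. Of secretory genes, the highest members lay near GCG (fold 4.26), CLCA1 (3.85), KLK1 (4.15) and TFF2 (3.77).

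A list of 30 very long genes, most of them neuronal adhesion or synapse genes, had the highest share of members of the 9 lists. The median length of its genes was 1183 kb. Near them 67 of 250 uninduced regions were members (26.8%, 21.7 to 32.6) and 14 of 217 induced ones induced-alone (6.45%, 3.88 to 10.5). Genes over 300 kb as a class had 17.6% of the regions inside them as members. That count leaves out the 50 kb around each gene, so it is not on the same measure as the 26.8%. Only 1 of the 67 lay on induced Pol II and 2 on uninduced Pol II. NRXN3 had 16 members among 40 regions, with a highest fold of 4.26. NTM, a neurotrimin cell adhesion protein, had 10 among 22 and no induced-alone region, and its highest member had a fold of 5.31. RIMS2, a scaffold of the synaptic active zone, had 4 among 8, the highest with a fold of 6.89 at 37.0 kb from the gene, and CNTN5, a contactin, 2 among 7 with a highest fold of 5.50. The list also holds WWOX, FHIT, MACROD2 and PARD3B, which are long but not genes of neuronal adhesion or synapses, and without these 4 the shares were 32.1% of 165 regions (25.5 to 39.6) and 5.19% (2.53 to 10.3). With −log10 q of 5 or more, members were 16.3% of the regions near the 30 genes (11.8 to 22.1), against 5.93% near all genes, and with the 1 kb rule 16.4% (12.3 to 21.5), against 8.00%.

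**Figure D5:**
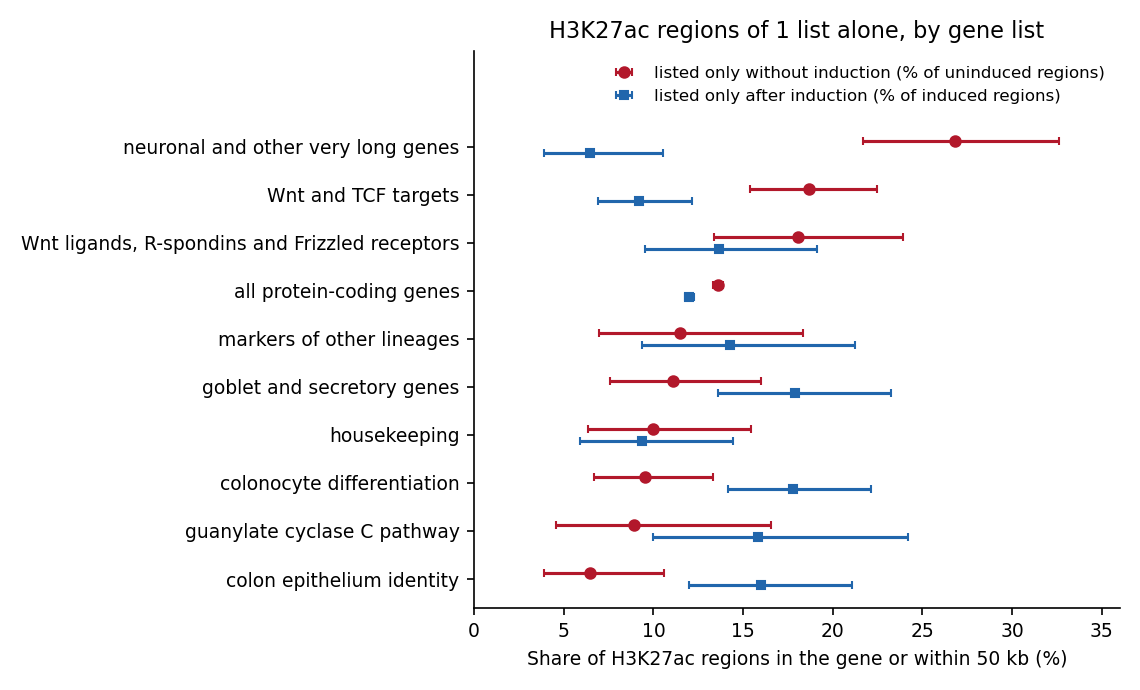
Share of H3K27ac regions listed only without induction among uninduced regions (red circles) and listed only after induction among induced regions (blue squares), in the genes of each list or within 50 kb, with Wilson 95% intervals. For the list of neuronal and other very long genes and the Wnt target list the red intervals lie to the right of the blue ones (26.8% and 6.45%, 18.7% and 9.19%), and for colonocyte differentiation and colon identity to the left.

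Among symbol families, members were 8.15% of the regions inside ZNF genes and 5.26% inside PCDH genes, against 12.6% inside all protein-coding genes. They were 6.52% for HOX, 12.9% for SLC, 14.5% for KRT, 15.5% for CDH, 17.1% for OR, 18.4% for KCN and 20.2% for GPR genes. The OR value rests on 7 members in 41 regions, the HOX value on 3 in 46, the PCDH value on 3 in 57 and the KRT value on 8 in 55.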

How the data were processed

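DLD1 ChIP-seq peak lists were read, 1 per antibody and condition, each tied by the labels to 2 samples; pooling of reads before calling is not stated in the sources. Per the labels' protocols, fixed chromatin sheared to 250 to 300 bp gave 40 to 55M single-end 75 bp reads per sample. The depth of each list beyond that range is unknown. Per the submitters' processing notes, the tools named, with no role or order, include MACS2 2.1.1.20160309, deepTools 3.5.0, SAMtools 1.10 and BWA 0.7.17-r1188. Every summit of the deposited lists has the authors' fold enrichment (a ratio), −log10 q, and a whole-number score and −log10 p that were not used. Filters are not stated; deposited −log10 q values begin at 1.30. These values depend on depth and input, so they ranked or described regions within 1 list only. Positions lie on GRCh38, since chromosome 17 reaches 83228308. The deposited summit lists repeat the peak lists. The RNA-seq samples were not analysed here.

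Rows repeating a region were collapsed to 1 with its highest −log10 q and fold, and only chromosomes 1 to 22 and X were kept, which dropped up to 0.603% of summits. Overlap meant 1 shared base; the member count equalled that of bedtools 2.31.1. Genes were 19974 protein-coding genes of RefSeq GRCh38.p14, whose table has no strand, so gene ends are either end; starts came from the RefSeq promoter windows. Shares have Wilson 95% intervals and medians binomial ones, computed with SciPy 1.17.1 and tested on simulated data. Intervals treat regions as independent, though neighbours share libraries. The regions and the 9 gene lists were chosen with earlier results of these data known. Genes and regions named were the 10 highest, 6 highest with uninduced Pol II alone, 6 highest at gene ends, 3 widest, 4 longest runs, 4 fullest bins, 10 genes with most members, up to 4 genes per list and 8 fixed genes. The Wnt genes outside this rule and the printed promoters, which the named regions open to printing do not cover, were added after values were seen. A few items that this rule names are not reported here. Alternatives changed the −log10 q threshold, the overlap rule, the list lengths and the gene windows.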

Additional observations from a re-analysis of the deposited data

How the results depend on the processing

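With 1 list per condition no spread between samples can be had, and weak regions are the least certain. No paired analysis was possible because each list serves both samples of a condition. Of 72 alternative values, 28 stayed inside the 95% interval of the reported one and 44 left it; those on gene lists and on transcription starts were chosen after seeing the data, as was leaving 4 genes out of the list of very long genes. With −log10 q of at least 5, the share of members was 6.75%, their median width 503 bp, the gene-end share 3.73%, the share in genes 47.8%, on induced Pol II 4.42% and on uninduced 6.90%, and in runs 27.3%. With an induced region within 1 kb counted as shared, the values were 8.70%, 413 bp, 3.74% at gene ends, 50.8% in genes and 40.8% in runs. With 50% coverage required, they were 18.7%, 443 bp, 6.02% on induced and 9.18% on uninduced Pol II, and 45.5% in runs. With the 70000 highest regions of each list, the share was 14.2% and the width 467 bp. A 2 kb window gave 7.56% at gene ends, all annotated genes 9.90% at ends and 65.8% inside, and transcription starts 1.59%. Pol II regions of −log10 q 5 or more gave 4.01% on induced and 6.34% on uninduced Pol II, and the 40000 highest 4.67% and 6.70%.

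In every one of these settings that redefined the members, they were narrower than partnered regions (whose median ran from 1257 to 1599 bp) and had the lower shares at gene ends and on both Pol II lists. For the gene lists, values are members and then induced-alone regions. Near Wnt targets they were 6.78% and 2.66% with −log10 q of 5 or more, 8.58% and 4.49% with the 1 kb rule, and 24.7% and 13.0% with 50% coverage. Near colonocyte genes they were 4.02% and 5.17%, then 5.90% and 7.63%, with 50% coverage 22.3% for induced-alone regions, and with the 70000 highest 14.1% for them. Near the list of very long, mostly neuronal genes they were 16.3% and 3.05%, 16.4% and 3.69%, and 37.2% for members with 50% coverage. Over the whole lists the induced-alone share was 4.37% with −log10 q of 5 or more and 6.93% with the 1 kb rule. The cause of these shifts was not tested.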

Other observations

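Of 1558 miRNA hairpins, 274 overlapped an uninduced H3K27ac region and 5 a region listed only without induction (MIR1288, MIR4647, MIR6132, MIR6805 and MIR6886). CDK15, a cyclin-dependent kinase, had 10 of its 11 uninduced regions as members and no induced-alone region. A run of 7 members spanned 60.7 kb there (chr2:201798343-201859058), with a highest fold of 4.64 and none on Pol II. In bins of 1 Mb, chr12:83000001-84000000 had the highest share among the 8 bins of 20 or more members, with 22 of 38 uninduced regions, 1 induced-alone region and no Pol II on any member. These were chosen after their values were seen.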
